A study of Homo sapiens with 12 samples.

Results

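A set of 7 genes named as noncoding or by a clone identifier was followed across Hs 578T cells that differed in NRF2 expression and in the supply of cystine. The 7 are LUCAT1, RP11-443P15.2, RP5-952N6.1, RP11-48O20.4, AC016747.3, CTD-2547L16.1 and ENTPD3-AS1, out of 55765 genes counted. They were picked by symbol because they had changed in 1 or more of the comparisons below, so their levels and log2FCs are given as a description and carry no test. Hs 578T is a human triple-negative breast cancer line of the mesenchymal stem-like subtype. The cells had been transduced with lentivirus to express GFP, the control, or full-length NRF2. They were then kept for 8 h in one of 2 media, either with 0.8 mM l-cystine (with Cyss) or with none added (without Cyss). All 12 libraries came from this line and from the same base medium with serum, methionine and glutamine, and 3 libraries were made in each of the 4 groups. The GFP cells kept their own NFE2L2, so they are a control for added NRF2 and not cells without it. No source used here says whether the 3 libraries of a group came from separate cultures, so the spread between them may be technical.

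NRF2, encoded by NFE2L2, is the transcription factor that turns on antioxidant and detoxification genes through antioxidant response elements (AREs) once it escapes its inhibitor KEAP1. Cystine is the oxidised, imported form of cysteine, from which glutathione is built, and cells short of an amino acid also switch on genes of the transcription factor ATF4, such as those for serine synthesis and amino acid transport. Long noncoding RNAs are transcripts with no long open reading frame, and some act in the nucleus on the transcription of other genes. LUCAT1 is a long noncoding RNA known as a target of NRF2 and as a brake on the interferon response. ENTPD3-AS1 is named as the antisense partner of ENTPD3, which encodes an ectonucleotidase. No function is given here for the 5 genes that carry only a clone name. The study's own lists class RP11-48O20.4 and RP5-952N6.1, like LUCAT1, as long intergenic noncoding RNAs, but RP11-443P15.2 as a pseudogene. Reads of a pseudogene can be shared with its parent gene, so the value of RP11-443P15.2 is uncertain in this respect.

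The reference holds a position for LUCAT1 and for ENTPD3-AS1. In the GRCh37 build, to which the reads were aligned, LUCAT1 lies on the minus strand at chr5:90350651-90610364 and ENTPD3-AS1 on the minus strand at chr3:40355293-40494820. The RefSeq promoters of both, 250 bases before to 50 bases after the start, are printed to show whether the letters bound by NRF2 stand near the start of a gene that was high in NRF2 cells and of one that was not. They are written 5′ to 3′ along the gene, from GRCh38.p14, at chr5:91314353-91314652 for LUCAT1 and chr3:40453259-40453558 for ENTPD3-AS1. Capitals mark a match to the core of the ARE, and there is none in the promoter of ENTPD3-AS1.

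LUCAT1: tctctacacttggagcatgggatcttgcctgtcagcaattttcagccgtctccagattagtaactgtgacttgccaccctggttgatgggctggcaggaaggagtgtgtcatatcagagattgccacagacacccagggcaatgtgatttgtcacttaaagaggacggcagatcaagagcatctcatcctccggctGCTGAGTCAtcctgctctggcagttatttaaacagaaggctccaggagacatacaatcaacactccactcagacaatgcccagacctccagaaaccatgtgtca
ENTPD3-AS1: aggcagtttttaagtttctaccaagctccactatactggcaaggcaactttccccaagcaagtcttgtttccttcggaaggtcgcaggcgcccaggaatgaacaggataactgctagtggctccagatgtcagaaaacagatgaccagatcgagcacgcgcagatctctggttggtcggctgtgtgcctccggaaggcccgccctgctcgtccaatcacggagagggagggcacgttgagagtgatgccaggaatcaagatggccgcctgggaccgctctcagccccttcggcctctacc

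The letters searched on both strands were the ARE core TGACNNNGC, the AP-1 site TGANTCA and the core TGATGNAA of the elements bound by ATF4. The LUCAT1 promoter held 1 ARE core, on the minus strand of the printed sequence, from 54 to 46 bases before the start. The same letters held an AP-1 site, so the ARE core and the AP-1 site overlapped there. An ARE core was present in 3702 of 27305 RefSeq promoters of this length (13.6%), in 6 of the 20 NRF2 targets with a promoter in the table and in 7 of the 21 ATF4 targets. An AP-1 site was present in 7.76% of all promoters and the ATF4 core in 3.67%. These matches describe the letters in the window and no binding was measured.

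The libraries held between 27250993 and 44596870 reads on genes after ribosomal RNA genes were set aside, with a median of 32857536. NFE2L2 itself followed the labels, with a mean normalised read count of 3762 ± 102 in GFP cells and 6719 ± 192 in NRF2 cells with Cyss, and 4580 ± 77.3 and 7990 ± 522 without Cyss (SD, n = 3 each). Its log2FC between NRF2 and GFP cells was 0.84 with Cyss and 0.79 without (adjusted p = 9.82e-11 and 6.38e-06). The labels call the line epithelial, whereas the mesenchymal genes VIM, FN1 and COL1A1 each averaged at least 145000 normalised read counts in every group and the epithelial genes CDH1 and EPCAM at most 10.8 and 0.585. The listed markers were not all so far apart. Mesenchymal TWIST1 averaged 885 to 1150 and the receptor gene ERBB2 1230 to 1340. The receptor gene PGR averaged 20.7 and 17.4 in NRF2 cells with and without Cyss, against 4.68 and 1.05 in GFP cells. On the first principal component (27.9% of the variance), the third GFP library without Cyss lay at 4.41 and the other 2 of its group at -10.8 and -8.04, so the log2FCs of the 7 genes in both comparisons that use this group are also given without that library. Normalised read counts below are counts scaled by edgeR's TMM factors to the mean library size. They are shares of the RNA of a bulk culture, in which fewer cells of one kind and less RNA per cell cannot be told apart.

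**Figure D1:**
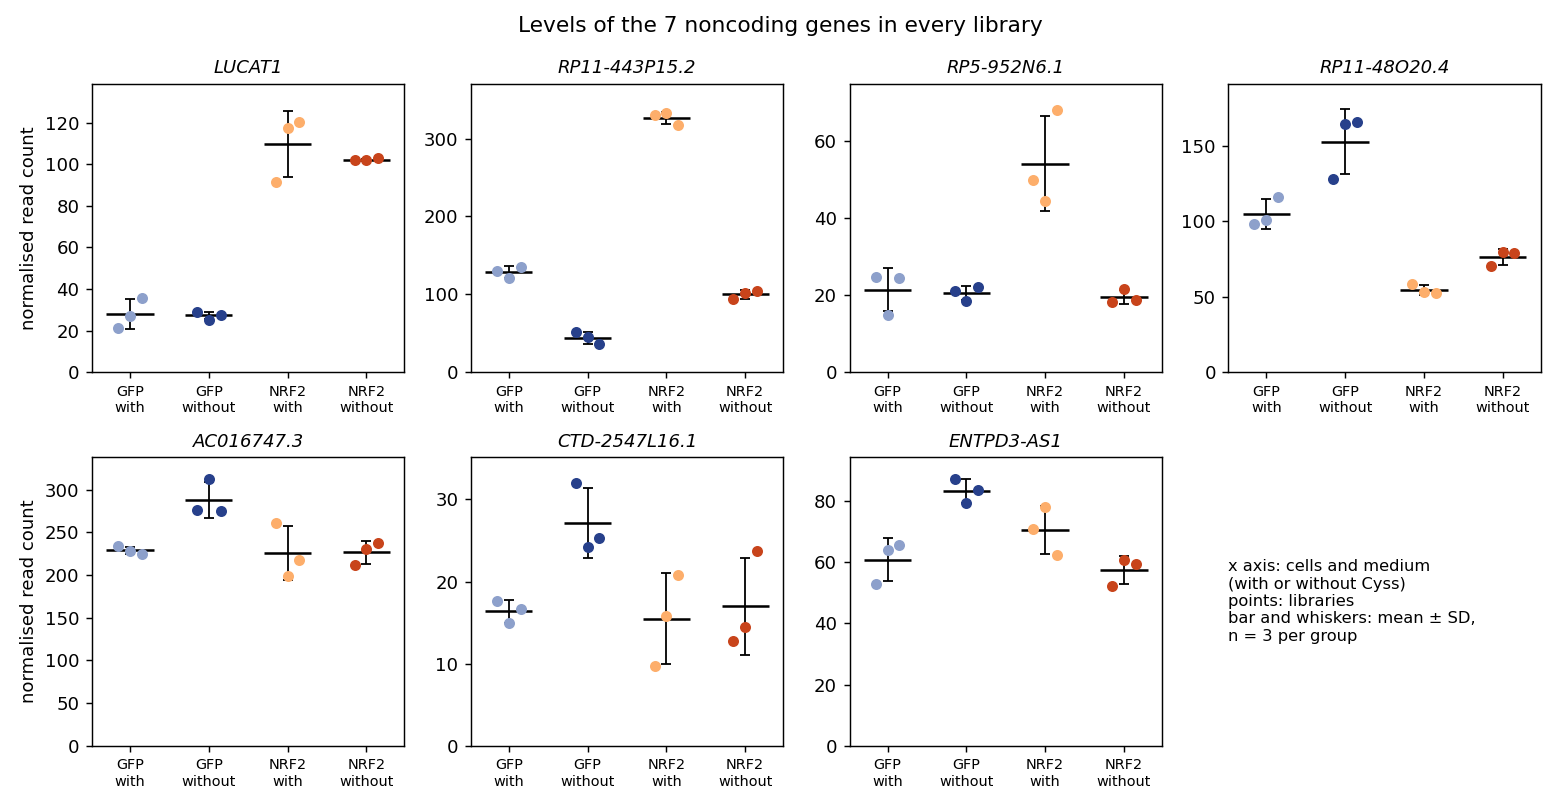
Normalised read count (y axis, linear from 0) of each of the 7 genes in GFP and NRF2 cells with or without Cyss. Points are the 3 libraries of a group and bars with whiskers the mean ± SD. LUCAT1 is high in both groups of NRF2 cells (91.4 to 120.6) and RP5-952N6.1 only in NRF2 cells with Cyss (44.4 to 68.0). The 3 genes of the lower row, though not they alone, are highest in GFP cells without Cyss.

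LUCAT1 was about 4 times as abundant in NRF2 cells as in GFP cells, whichever the medium. The libraries of GFP cells with Cyss held 21.2, 26.8 and 35.8 normalised read counts, and those without Cyss 29.0, 25.3 and 27.5. In NRF2 cells the values were 91.4, 117.3 and 120.6 with Cyss and 102.1, 102.1 and 102.9 without. The 2 groups of GFP cells overlapped, as did the 2 groups of NRF2 cells, while each NRF2 library lay above each GFP library. The log2FC of NRF2 against GFP cells was 1.98 (SE 0.178) with Cyss, which is 3.95-fold, and 1.89 (SE 0.148) without, which is 3.70-fold. Removal of Cyss left log2FCs of -0.03 (SE 0.224) in GFP cells and -0.11 (SE 0.131) in NRF2 cells, whose 95% intervals ran from -0.47 to 0.41 and from -0.37 to 0.15, and these responses differed by -0.08 (SE 0.259). LUCAT1 rested on 22 to 41 reads per library in GFP cells and on 75 to 111 in NRF2 cells. Counting alone therefore gives a coefficient of variation of 17.2 to 19.9% per GFP library.

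RP11-443P15.2 was higher in NRF2 cells and lower without Cyss, in both comparisons of each kind. With Cyss, the GFP libraries held 129.6, 120.7 and 135.5 normalised read counts and the NRF2 libraries 330.3, 332.8 and 318.0. Without Cyss, the GFP libraries held 51.0, 44.8 and 36.3 and the NRF2 libraries 93.6, 102.1 and 104.8. None of the 4 groups overlapped another, in the order GFP without Cyss, NRF2 without Cyss, GFP with Cyss and NRF2 with Cyss. NRF2 cells deprived of Cyss thus held less of this RNA than GFP cells supplied with it, with means of 100.2 ± 5.87 against 128.6 ± 7.43 (SD, n = 3). The log2FC on Cyss deprivation was -1.54 (SE 0.139) in GFP cells and -1.71 (SE 0.0943) in NRF2 cells. NRF2 against GFP cells gave 1.35 (SE 0.0835) with Cyss and 1.17 (SE 0.152) without. The responses of the 2 cell types to deprivation differed by -0.17 on the log2 scale, with a 95% interval that included 0 (-0.50 to 0.16). Without the third GFP library without Cyss, the log2FC on deprivation in GFP cells was -1.41.

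RP5-952N6.1 was raised in 1 of the 4 groups. The NRF2 libraries with Cyss held 49.97, 44.37 and 67.98 normalised read counts. The other 3 groups overlapped one another, with 24.7, 14.9 and 24.5 in GFP cells with Cyss, 21.01, 18.39 and 21.98 in GFP cells without Cyss, and 18.1, 21.6 and 18.8 in NRF2 cells without Cyss. NRF2 against GFP cells gave a log2FC of 1.36 (SE 0.228) with Cyss and -0.08 (SE 0.237) without. Deprivation gave -1.47 (SE 0.228) in NRF2 cells and -0.04 (SE 0.254) in GFP cells, a difference between the cell types of -1.43 (SE 0.352). The gene rested on 16 to 62 reads per library, and the counting error of a library in the 3 low groups was 19.9 to 22.9%.

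RP11-48O20.4 changed in the opposite directions to RP11-443P15.2, lower in NRF2 cells and higher without Cyss. The order of its groups was not the reverse, as NRF2 cells without Cyss lay below GFP cells with Cyss for both genes. The NRF2 libraries held 58.5, 52.8 and 52.6 normalised read counts with Cyss and 70.2, 79.4 and 79.1 without. The GFP libraries held 97.9, 100.6 and 116.3 with Cyss and 128.1, 164.4 and 166.0 without. The 4 groups did not overlap, from NRF2 with Cyss as the lowest, through NRF2 without Cyss and GFP with Cyss, to GFP without Cyss. NRF2 against GFP cells gave a log2FC of -0.94 (SE 0.135) with Cyss and -1.01 (SE 0.137) without. Deprivation gave 0.54 (SE 0.124) in GFP cells and 0.48 (SE 0.149) in NRF2 cells, a difference of -0.05 between the cell types (95% interval -0.44 to 0.33). Without the third GFP library without Cyss, the log2FC in GFP cells was 0.47 and no longer passed the threshold on the adjusted p, and the same held when the second library of either GFP group was left out. In NRF2 cells the deprivation value of 0.48 missed the threshold when the second or the third library with Cyss was left out.

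The other 3 genes, AC016747.3, CTD-2547L16.1 and ENTPD3-AS1, had GFP cells without Cyss as their highest group, as did the gene of the preceding paragraph. AC016747.3 held 276.1, 312.6 and 274.8 normalised read counts there, 233.6, 228.1 and 224.7 in GFP cells with Cyss, and 260.8, 198.6 and 217.1 or 211.6, 229.9 and 237.4 in NRF2 cells with or without Cyss. The last 3 groups overlapped. Its log2FC on deprivation was 0.33 (SE 0.0785) in GFP cells and 0.01 (SE 0.106) in NRF2 cells. The comparison of NRF2 with GFP cells gave -0.36 (SE 0.0913) without Cyss and -0.03 (SE 0.0941) with it.

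CTD-2547L16.1 had the fewest reads of the 7, between 8 and 32 per library. GFP cells without Cyss held 32.01, 24.14 and 25.28 normalised read counts and GFP cells with Cyss 17.6, 14.9 and 16.6. NRF2 cells held 9.75, 15.8 and 20.8 with Cyss and 12.8, 14.4 and 23.7 without. The NRF2 groups overlapped each other and GFP cells with Cyss, and their highest library, at 23.7, came within 1 normalised read count of the lowest of GFP cells without Cyss. The log2FC on deprivation in GFP cells was 0.74 (SE 0.224), and that of NRF2 against GFP cells without Cyss -0.68 (SE 0.275). Deprivation of NRF2 cells gave 0.12 (SE 0.336), and NRF2 against GFP cells with Cyss -0.06 (SE 0.29). With a counting error of 19.9 to 26.7% per library, the depth supports no finer order of the 3 lower groups.

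ENTPD3-AS1 held 87.0, 79.3 and 83.5 normalised read counts in GFP cells without Cyss, against 52.9, 64.1 and 65.6 with Cyss. NRF2 cells held 70.7, 78.2 and 62.5 with Cyss and 52.1, 60.8 and 59.3 without. The order was therefore NRF2 without Cyss, GFP with Cyss, NRF2 with Cyss and GFP without Cyss. The first and second of these groups overlapped, as did the second and the third. The topmost overlapped none, but its lowest library (79.3) was close to the highest of NRF2 cells with Cyss (78.2). Counting errors were 11.4% and 12.6% per library in these 2 groups. Its log2FC on deprivation was 0.45 (SE 0.134) in GFP cells and -0.30 (SE 0.157) in NRF2 cells, where the groups did not overlap but the thresholds were not passed. The difference between the 2 responses was -0.74 (SE 0.196). NRF2 against GFP cells gave -0.55 (SE 0.136) without Cyss and 0.21 (SE 0.148) with it. The libraries did not record strand, so reads of ENTPD3-AS1 cannot be told from reads of the opposite strand at the same place. ENTPD3, the gene on that strand, shares 128 exonic bases with it in the reference and held 0 to 5 reads per library.

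Among the 280 genes with antisense symbols (-AS) that were tested in GFP cells, the median log2FC on deprivation was 0.10, beside 0.00 over all genes. The same class had a median of -0.08 in NRF2 against GFP cells without Cyss, beside -0.02 over all genes. These shifts had the direction of ENTPD3-AS1 and were smaller than its own values, and their part in its result was not tested.

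**Figure D2:**
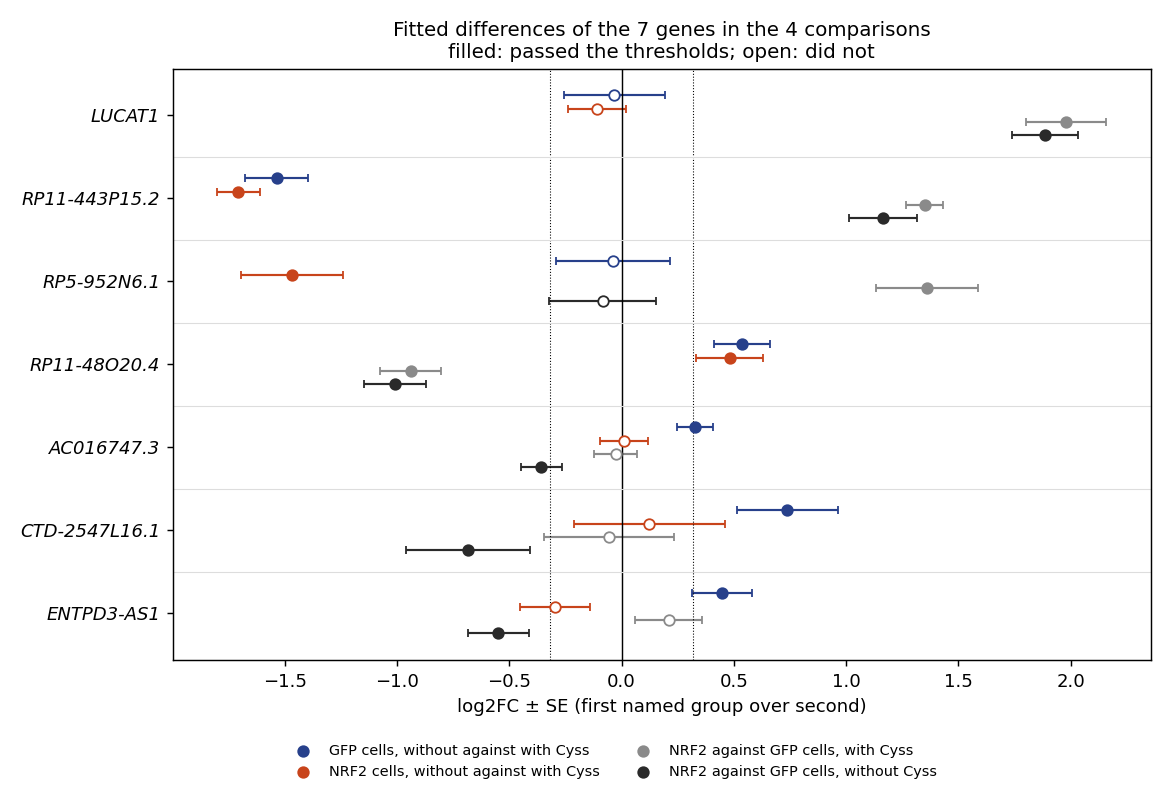
log2FC ± SE of the 7 genes (x axis) in the 4 comparisons, from the fit of each pair of groups. Filled points passed both thresholds, and dotted lines stand at a log2FC of 0.32 in either direction. The points for NRF2 against GFP cells lie at 1.98 and 1.89 for LUCAT1, and for RP5-952N6.1 at 1.36 with Cyss and -0.08 without.

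Counted over the 7 genes, 2 thresholds had to be passed, an adjusted p below 0.1 and a log2FC beyond 0.32 in either direction, and the share of all tested genes that passed them is given beside each count. In GFP cells deprived of Cyss, 5 passed, 4 higher and 1 lower, against 2.10% of 17452 genes. In NRF2 cells deprived of Cyss, 3 passed, 1 higher and 2 lower, against 11.9% of 17266 genes. In NRF2 against GFP cells with Cyss, 4 passed, 3 higher and 1 lower, against 1.61% of 17449 genes. In the same comparison without Cyss, 6 passed, 2 higher and 4 lower, against 10.1% of 17297 genes. The difference between the responses, with an adjusted p under 0.1 only, passed for RP5-952N6.1 and ENTPD3-AS1, against 15.1% of 17674 genes. As the genes were chosen for passing, nothing is read from these counts. Groups that did not overlap were seen for 5, 4, 4 and 6 of the 7 in the first 4 comparisons, beside 23.6%, 37.8%, 24.7% and 38.2% of all tested genes. The median log2FC of the 7 was 0.33, -0.11, 0.21 and -0.36 in these comparisons and that of all genes between -0.02 and 0.00. Just inside the thresholds stood AC016747.3 in GFP cells (log2FC 0.33) and CTD-2547L16.1 in the same comparison (adjusted p = 0.0986 by edgeR, the largest that passed). ENTPD3-AS1 in NRF2 cells stood just outside the fold threshold (log2FC -0.30) but further from the other (adjusted p = 0.2 by edgeR).

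The comparisons share libraries. The GFP libraries without Cyss enter both the response of GFP cells and NRF2 against GFP cells without Cyss, so the rise and the negative value of AC016747.3, CTD-2547L16.1 and ENTPD3-AS1 there rest on the same 3 libraries. Likewise, the 3 NRF2 libraries with Cyss enter the 1.36 of RP5-952N6.1 against GFP cells and its -1.47 on deprivation. They also enter its difference between the responses. No library is shared by the responses of the 2 cell types to deprivation. RP11-443P15.2 was lower and RP11-48O20.4 higher without Cyss in both. LUCAT1 passed in neither. RP5-952N6.1 passed in NRF2 cells, and AC016747.3, CTD-2547L16.1 and ENTPD3-AS1 in GFP cells. The difference between the cell types passed for RP5-952N6.1 and ENTPD3-AS1. For AC016747.3 it was -0.32 (95% interval -0.58 to -0.06) and for CTD-2547L16.1 -0.61 (-1.41 to 0.18), neither past the threshold with all libraries and TMM scaling. That of AC016747.3 passed with library size as the only scaling (-0.37, adjusted p = 0.0814 by edgeR) and without the second NRF2 library with Cyss (-0.41, adjusted p = 0.0842).

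**Figure D3:**
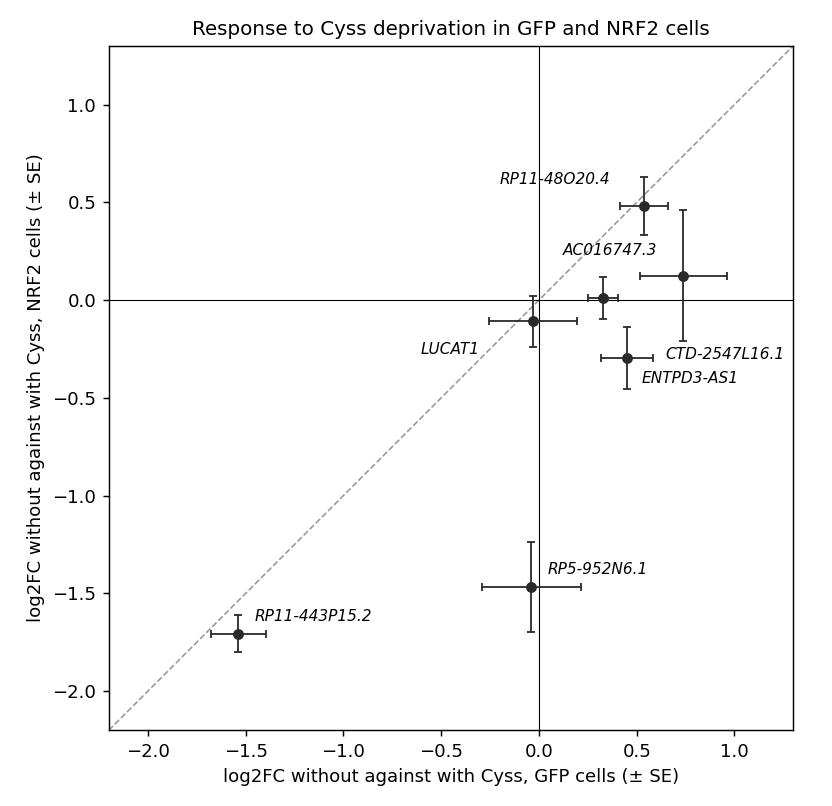
log2FC without against with Cyss in GFP cells (x axis) and in NRF2 cells (y axis) for the 7 genes, with SE in both directions; the dashed line marks equal responses. RP11-443P15.2 (-1.54, -1.71) and RP11-48O20.4 (0.54, 0.48) lie near the line, and RP5-952N6.1 (-0.04, -1.47) far below it.

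Leaving out 1 library at a time moved some values past a threshold and left others on the same side. The log2FC of LUCAT1 between NRF2 and GFP cells stayed between 1.83 and 2.18 with Cyss and between 1.84 and 1.94 without, and that of RP5-952N6.1 with Cyss between 1.13 and 1.49. RP11-443P15.2 stayed between -1.66 and -1.41 on deprivation of GFP cells and between -1.74 and -1.66 in NRF2 cells. All of these passed the thresholds in each of their 6 fits. By contrast, CTD-2547L16.1 and ENTPD3-AS1 on deprivation of GFP cells passed in 0 of 6 such fits, with log2FCs of 0.60 to 0.81 and 0.37 to 0.50, and AC016747.3 in 3 of 6 (0.27 to 0.36), but not without the second or the third GFP library with Cyss, or the second that lacked it. With the third GFP library without Cyss left out, these values were 0.79, 0.45 and 0.36, while LUCAT1 stood at -0.03 and RP5-952N6.1 at -0.09. NRF2 against GFP cells without Cyss then gave log2FCs of 1.89 for LUCAT1, 1.05 for RP11-443P15.2, -0.03 for RP5-952N6.1 and -0.94 for RP11-48O20.4. In that fit AC016747.3 stood at -0.39, CTD-2547L16.1 at -0.73, which did not pass, and ENTPD3-AS1 at -0.55. The negative value of CTD-2547L16.1 in NRF2 against GFP cells without Cyss passed in 1 of 6 fits (-1.01 to -0.51), the one without the third NRF2 library. That of AC016747.3 passed in 4 of 6 (-0.39 to -0.29), not without the second GFP library or the first NRF2 library, and that of ENTPD3-AS1 in 6 of 6 (-0.59 to -0.48). For each value named here the direction was the same over all such fits, apart from 2 on deprivation of GFP cells. These were LUCAT1 (-0.18 to 0.17) and RP5-952N6.1 (-0.26 to 0.08).

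The genes beside LUCAT1 and ENTPD3-AS1 were not used to choose them and could be tested. On chromosome 5 the body of LUCAT1 overlaps that of ADGRV1 (GPR98 in the count files), an adhesion receptor gene on the opposite strand, without shared exons, and GPR98 held 2 to 9 reads per library, too few for the test. ARRDC3, which encodes an arrestin-domain protein and lies 54084 bases away, gave log2FCs of 0.03 (with Cyss) and 0.08 (without) for NRF2 against GFP cells (adjusted p = 0.863 and 0.562). Its largest value was 0.23 in NRF2 cells on deprivation (adjusted p = 0.0588), under the fold threshold. LYSMD3, on the other side at 525250 bases, gave -0.09 and 0.14 for NRF2 against GFP cells (adjusted p = 0.51 and 0.191) and -0.29 on deprivation of GFP cells (adjusted p = 0.0518). Neither ARRDC3 nor LYSMD3 passed both thresholds in any of the 4 comparisons between groups with all libraries. LYSMD3 did so in GFP cells without the second or the third library with Cyss (-0.35 in both fits), and ARRDC3 in NRF2 cells without the third library that lacked Cyss (0.35). The difference between the responses of LYSMD3 was 0.24 (adjusted p = 0.186), and it passed with no filter on low counts (0.24, adjusted p = 0.0699) and without the third NRF2 library that lacked Cyss (0.32, adjusted p = 0.0384). The 95% intervals of ARRDC3 and LYSMD3 for NRF2 against GFP cells lay between -0.22 and 0.27 in both media, and the log2FC of LUCAT1 lay above 1.8.

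Beside ENTPD3-AS1 on chromosome 3 stand EIF1B, which encodes a translation initiation factor, 1378 bases away, and RPL14, a ribosomal protein gene, 3963 bases away. EIF1B gave log2FCs of 0.12 and 0.05 on deprivation of GFP and NRF2 cells (adjusted p = 0.232 and 0.599) and -0.10 for NRF2 against GFP cells without Cyss (adjusted p = 0.217). RPL14 gave 0.10 and -0.10 on deprivation (adjusted p = 0.23 and 0.284) and -0.22 for NRF2 against GFP cells without Cyss (adjusted p = 0.0334), under the fold threshold. The difference between the responses was -0.08 for EIF1B (adjusted p = 0.549) and -0.19 for RPL14 (adjusted p = 0.134), beside -0.74 for ENTPD3-AS1. For RPL14 it passed in the fit with the replicate number as a block (adjusted p = 0.0423), with library size as the only scaling (0.0494), with no filter on low counts (0.0707) and without the third NRF2 library without Cyss (0.0237).

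Known genes of the 2 pathways were read from the same fits. Of 28 NRF2 targets, 14 passed as higher in NRF2 cells when Cyss was supplied and 13 when it was not, and none of the 28 passed as lower in either. The highest was AKR1C2, a ketosteroid reductase, at 2.19 with Cyss and 1.46 without, followed by AKR1B10 at 1.44 with Cyss. The 1.98 of LUCAT1 with Cyss lay between these values and its 1.89 without Cyss above that of AKR1C2. On deprivation, 11 of the 28 fell and 1, HMOX1, rose in GFP cells, and 15 fell in NRF2 cells. TRIM16L fell most in both, by 0.93 and by 1.45 on the log2 scale. The fall of RP11-443P15.2 was larger than that of any of the 28 in either cell type, beside -0.03 and -0.11 for LUCAT1. Of the ATF4 targets, 22 of 23 rose in GFP cells and 21 of 24 in NRF2 cells on deprivation, with CHAC1, a glutathione-degrading enzyme, at 2.10 and 1.81. In NRF2 against GFP cells with Cyss, 0 of 23 passed by edgeR and 0 by DESeq2. By edgeR, 3 had an unadjusted p under 0.05 and 2 an adjusted p under 0.1, and these 2 stayed under the fold threshold. Without Cyss, 5 of 24 passed, 2 higher and 3 lower. The difference between the responses passed for 10 of 24 ATF4 targets, 9 negative and 1 positive. It passed for 15 of 28 NRF2 targets, 12 negative and 3 positive, beside 15.1% of all genes tested. Among AC016747.3, CTD-2547L16.1, ENTPD3-AS1 and RP11-48O20.4, which were higher without Cyss in GFP cells, RP11-48O20.4 was the one that also passed in NRF2 cells.

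Long noncoding RNAs that are often studied were read the same way. Of 25 listed, 17 to 19 could be tested, and the others had too few reads or no matching symbol in the count files. In GFP cells on deprivation 0 of 18 passed by edgeR and by DESeq2, with 6 at an unadjusted p under 0.05 and 1 at an adjusted p under 0.1. In NRF2 against GFP cells with Cyss 0 of 19 passed by both, with 5 and 2 at those limits. NEAT1 missed only the fold threshold in the first comparison (0.30, adjusted p = 0.0162 by edgeR). In the second, NEAT1 (0.21, adjusted p = 0.00549) and MEG3 (0.31, adjusted p = 0.000118) did so. In NRF2 cells on deprivation 3 of 18 passed by edgeR (16.7%, beside 11.9% of all genes) and 2 by DESeq2. By edgeR they were MIR31HG (0.34, adjusted p = 0.0634), which hosts a microRNA, LINC00973 (0.79) and HOTAIRM1 (-0.39), from the HOXA cluster. NEAT1, the scaffold of paraspeckles, and HOTAIRM1 were lower in NRF2 cells when both cell types lacked Cyss, at -0.41 and -0.46. They made up 11.8% of the 17 tested there, beside 10.1% of all genes. The response to deprivation differed between the cell types for NEAT1 by -0.60 (adjusted p = 0.00156), with 0.30 in GFP cells and -0.30 in NRF2 cells, a pattern of signs like that of ENTPD3-AS1. It also differed for MEG3 by -0.38 (adjusted p = 0.00496) and for HOTAIRM1 by -0.29. The difference thus passed for 15.8% of the 19 tested, near the 15.1% of all genes. MALAT1, the abundant transcript of nuclear speckles, passed in no comparison. It stayed under the fold threshold at -0.19 in NRF2 cells on deprivation (adjusted p = 0.0057 by edgeR). In NRF2 against GFP cells without Cyss it did so at -0.17 (adjusted p = 0.0251). The count of 3 in NRF2 cells became 6 without the first NRF2 library that lacked Cyss, and each count of 0 rose to 1 in 2 of its 6 fits with a library removed. By name class, the share past the thresholds in NRF2 cells on deprivation was 23.4% of 111 LINC symbols, 13.5% of 266 antisense symbols and 10.5% of 2703 clone-named symbols, beside the 11.9% of all genes given above. In GFP cells it was 3.70%, 2.50% and 1.88%.

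The genes whose levels ran most closely with each of the 7 over the 12 libraries were found among 13524 genes with a mean of at least 50 normalised read counts. These correlations describe points that share a group, a library and its depth. The genes were picked on all 12 libraries, so the values without group means given below are not independent of that choice. For LUCAT1 they were NRCAM, a cell adhesion molecule (r = 0.985), SPP1, which encodes osteopontin (0.970), and CREG1 (0.960). NRCAM differed between NRF2 and GFP cells by 1.21 with Cyss and 1.08 without, and SPP1 by 3.16 and 3.29. For RP11-443P15.2 the first was AKR1B10, an aldo-keto reductase and NRF2 target (r = 0.971), followed by LRP8 and AFP. AKR1B10 fell by 0.76 in GFP cells and by 1.29 in NRF2 cells on deprivation and was higher in NRF2 cells by 1.44 with Cyss and 0.89 without. Its correlation with RP11-443P15.2 was 0.664 once group means were removed. For RP5-952N6.1 the first was CALCRL, a receptor subunit for adrenomedullin (r = 0.937, and 0.768 without group means), which stood 1.34 higher in NRF2 cells with Cyss and 0.38 without, and fell by 1.13 on deprivation of NRF2 cells. KIF23, a mitotic kinesin, ran with RP11-48O20.4 (r = 0.948) but with far smaller differences, -0.12 and -0.17 between NRF2 and GFP cells. The first genes for the other 3 were TFB1M (r = 0.905) for AC016747.3, EXOC1 (0.891) for CTD-2547L16.1 and C6orf226 (0.925) for ENTPD3-AS1. Without group means, the correlation of LUCAT1 with SPP1 was -0.398 and that of RP11-48O20.4 with KIF23 was -0.061. The likeness of these pairs lay between the groups and not within them. Other genes most alike gave other values without group means. These were 0.529 for LUCAT1 with NRCAM, 0.534 and 0.554 for RP11-48O20.4 with HNRNPK and RABEP1, and -0.506 for RP11-443P15.2 with LRP8.

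LUCAT1, RP11-443P15.2 and RP5-952N6.1 correlated positively with one another over the 12 libraries (0.526 to 0.780), and each was negatively correlated with RP11-48O20.4 (-0.858, -0.890 and -0.670). RP11-48O20.4, AC016747.3, CTD-2547L16.1 and ENTPD3-AS1 were positively correlated among themselves (0.424 to 0.733). Between the first 3 genes and AC016747.3, CTD-2547L16.1 and ENTPD3-AS1 the values ran from -0.663 to -0.243, apart from RP5-952N6.1 with ENTPD3-AS1 (0.095). These values are a description of genes chosen for their differences between the 4 groups.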

How the data were processed

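Total RNA of Hs 578T cells was made into 12 unstranded TruSeq RNA v2 mRNA libraries and sequenced from 1 end. Per the labels and the study's methods, the authors aligned reads to hg19 with TopHat 2.1.0 and counted them per gene symbol with HTSeq 0.11.2 without regard to strand; the annotation version is not given in the sources used here. The deposited values are raw read counts. HTSeq's 5 rows for reads on no gene, on several genes or otherwise not assigned held 15.9 to 17.1% of a library and, like 523 ribosomal RNA genes, stayed out. Each pair of groups (6 libraries) was fitted with edgeR 4.0.16 (R 4.3.3) by its quasi-likelihood test with TMM factors, keeping genes whose mean normalized count reached 10 in 1 group or more, and the difference between responses over all 12. P-values were adjusted by Benjamini-Hochberg over all genes tested. A gene passed with an adjusted p below 0.1 and a log2FC beyond 0.32 in either direction. Each SE of a log2FC is its size divided by the square root of the F statistic of that test. Intervals are log2FC with normal 95% limits, which are narrower than the F test implies for groups of 3 libraries. The counting error covers read sampling only, since reads carried no molecular identifiers. The scripts were tested on simulated data. Alternatives were DESeq2 1.42.0, other scalings, filters and thresholds, a replicate block and leaving out libraries.

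The members and gene lists were chosen with earlier results of these data known. Named besides the members were NFE2L2, exon-overlapping and nearest coding genes, the 3 genes most alike by Pearson correlation on log2 CPM with a prior count of 2, NRF2 and ATF4 targets that a member's result turns on, and well-studied long noncoding RNAs that passed. MALAT1, ADGRV1 and the name classes were added after values were seen. Positions are from GENCODE 44 on GRCh37 and promoters from RefSeq; 2 of the 7 symbols were found in both, and 5 in neither. No replicate pair within a group agreed within sampling noise (chi-square per degree of freedom 2.11 to 11.7).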

Additional observations from a re-analysis of the deposited data

Results flagged for a closer look

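RP5-952N6.1 and ENTPD3-AS1 stood out because the response to Cyss deprivation differed between NRF2 and GFP cells by edgeR's test of that difference over 12 libraries. For RP5-952N6.1 the difference was -1.43 on the log2 scale, with -0.04 in GFP cells and -1.47 in NRF2 cells. For ENTPD3-AS1 it was -0.74, with 0.45 in GFP cells and -0.30 in NRF2 cells. Both were among the genes chosen for changing in these libraries, and 15.1% of all genes tested passed the same test, so neither value is independent evidence. With any 1 of the 12 libraries left out both still passed, at -1.57 to -1.21 and at -0.83 to -0.66.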

How the results depend on the processing

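None of the 553 log2FCs of the 7 genes under an alternative moved by as much as 1 SD between libraries. No passing value changed sign. The limit of 1 SD shows little about stability. Alternatives in a threshold reuse the main log2FCs, and leaving out 1 library shifts a group mean by only part of its SD. Counts of passing genes moved more. Of the 5 in GFP cells on deprivation, 3 remained with DESeq2's Wald test, 3 with the replicate block, 3 at an adjusted p under 0.05, and 1 to 3 when any 1 library was left out, where the pooled spread stands in for the smaller group. CTD-2547L16.1 and ENTPD3-AS1 were the 2 lost under the first 3 of these. In the same comparison AC016747.3 missed the fold threshold with no filter on low counts (0.315), and CTD-2547L16.1 the adjusted p with all 12 libraries in the fit (0.139), which left 4 each. With DESeq2's Wald test, RP11-48O20.4 also missed the threshold in NRF2 cells (0.485, adjusted p = 0.13). CTD-2547L16.1 missed it in NRF2 against GFP cells without Cyss with that test, with DESeq2's size factors and at an adjusted p under 0.05. With 1 library left out, 2 to 3 members passed in NRF2 cells on deprivation, 4 to 4 in NRF2 against GFP cells with Cyss, 4 to 6 without Cyss, and 2 to 3 in the difference between responses. Over all genes, no fold change threshold gave 1033, 5012, 1146 and 4976 genes for GFP and NRF2 cells on deprivation and for NRF2 against GFP cells with and then without Cyss (367, 2063, 281 and 1742 with it). DESeq2 gave 170 for NRF2 against GFP cells with Cyss, and an adjusted p under 0.05 gave 1591 differing responses (2669 at 0.1). With 1 library left out, the ranges over all genes were 273 to 439, 1763 to 2222, 160 to 307 (160 without the first NRF2 library with Cyss), 1190 to 2028 and, for differing responses, 1394 (without the second GFP library without Cyss) to 3682. Same-numbered libraries of the groups compared deviated together with correlations of -0.037 to 0.137, so the numbers were not taken to pair them. The replicate block otherwise left 3, 4, 6 and 2 members passing. Neighbour genes near 0 changed sign: EIF1B in NRF2 cells on deprivation (-0.013 with library size only) and, with 1 library left out, LYSMD3 there (-0.108 to 0.023), LYSMD3, ARRDC3, EIF1B and RPL14 in NRF2 against GFP cells with Cyss (-0.145 to 0.015, -0.029 to 0.121, -0.049 to 0.014 and -0.039 to 0.012), ARRDC3 without Cyss (-0.019 to 0.193) and in its difference between responses (-0.036 to 0.181). Depth limits CTD-2547L16.1 most, at 8 to 32 reads.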
